A study of Mus musculus with 18 samples.

Results

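The clustered protocadherin genes lie in 3 neighbouring arrays on mouse chromosome 18, named alpha, beta and gamma. They were taken as the protein-coding genes of chromosome 18 in GENCODE M21, on the GRCm38 build, whose symbols begin with Pcdha, Pcdhb or Pcdhg and continue as a numbered or C-type cluster gene. This gave 57 genes of 21951 protein-coding genes, with 14 in alpha, 22 in beta and 21 in gamma, all on the plus strand. GENCODE M21 gives the symbol Pcdha11 to 2 of them, and 1 gene with a matching symbol, Pcdhgb8, was left out because it is annotated as a polymorphic pseudogene. The data were ChIP-seq peak lists from splenic B cells of Mir155-sufficient (WT) and Mir155-deficient (KO) mice on a C57BL/6J background, an experiment that asked how loss of miR-155 affects KDM2A binding and H3K36me2. B cells were enriched by removing cells that carry CD43, Ter119 or CD4, stimulated with antibodies to CD40 and IgM plus IL-4, and kept at 1% O2 for 2 days. Fixed chromatin was precipitated with an antibody to KDM2A or to H3K36me2, with 3 libraries per genotype and antibody, which gave 12 peak lists. In every group replicate 1 came from a male and the other replicates from females, and the study's methods give ages from 6 to 25 weeks for its mice as a whole, not for each library.

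Clustered protocadherins are cadherin-type adhesion proteins that give neurons a surface identity. In alpha and gamma, each gene has its own promoter and a large variable first exon that is spliced to constant exons shared by the whole cluster, whereas each beta gene is encoded by a single large exon. In neurons the alternate promoters are chosen stochastically with the help of CTCF, cohesin and DNA methylation, while the C-type genes at the 3′ ends of alpha and gamma follow other rules. KDM2A binds unmethylated CpG-rich DNA through its CXXC domain and removes methyl groups from H3K36me2, a mark common over gene bodies and between genes.

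Each promoter was scored in a window of 2 kb on both sides of the annotated 5′ end, and a peak was counted when it overlapped the window by at least 1 bp. Peaks report enrichment over a control and not expression. The KDM2A lists held 23372 to 29105 peaks in WT and 15387 to 21705 in KO, and covered 0.770% to 1.11% and 0.433% to 0.715% of the genome, so that the KO lists were shorter without overlap and list length cannot be told apart from genotype. Among the H3K36me2 lists, KO replicates 2 and 3 were the shortest, with 37447 and 45180 peaks, while the other 4 held 85387 to 106720. Because no read counts came with the lists, the depth of each library is unknown. Of 8 promoters of B cell markers, 8 had a KDM2A peak in at least 1 library and 6 in all 6, against 57.0% and 23.6% of all protein-coding promoters. Of 5 T cell and 4 myeloid markers, 1 each had a KDM2A peak in at least 1 library and none in all 6. These were Cd8a in 1 library and Adgre1 in 2 (WT replicate 1 and KO replicate 1). H3K36me2 peaks were present in at least 1 library at 5 T cell and 4 myeloid markers, as at all 8 B cell markers, against 52.3% of all protein-coding promoters.

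Clustered protocadherin promoters had few peaks of either antibody. A KDM2A peak was found at 4 of 57 promoters in at least 1 of 6 libraries and at 1 of 57, Pcdhgc3, in 2 or more. Over all protein-coding promoters these shares were 57.0% and 49.1%. An H3K36me2 peak was found at 2 of 57 promoters, Pcdhga12 and Pcdhgc4, each in a single library, against 52.3% of all protein-coding promoters. None of the 14 alpha or 22 beta promoters had a peak of either antibody in any of the 12 lists. Over the other 456 protein-coding promoters of chromosome 18, 228 (50.0%) had KDM2A and 184 (40.4%) had H3K36me2 in at least 2 libraries.

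**Figure D1:**
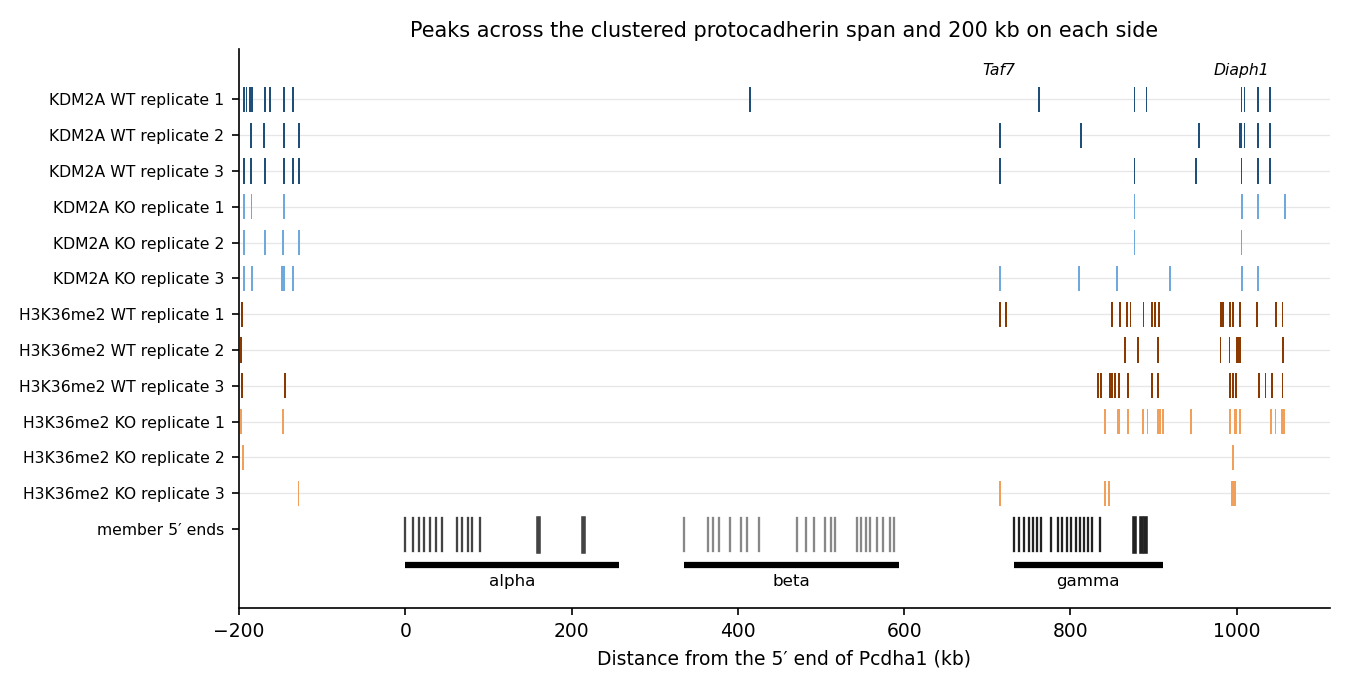
Peaks of the 12 lists across the alpha, beta and gamma clusters and 200 kb on each side. The horizontal axis gives the distance in kb from the 5′ end of Pcdha1, each row is a library, coloured bars are peaks (narrow peaks are widened to stay visible) and ticks mark the 57 promoters, with thicker ticks for the 5 C-type genes. The alpha cluster is empty in all rows, beta holds 1 KDM2A peak, and peaks return at Taf7 and in gamma.

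Pcdhgc3, the most 5′ of the C-type genes of gamma, was the exception. Its 5′ end is at chromosome 18, 37806364, in a CpG island of 1486 bp at chr18:37805999-37807484, the longest island in the clusters. In WT replicate 1 a KDM2A peak lay at chr18:37806202-37807020, with a fold of 2.63 over the control. In WT replicate 3 the peak lay at chr18:37806228-37806517, with a fold of 2.64. In KO replicate 1 it lay at chr18:37806298-37806523 with a fold of 2.73, and in KO replicate 2 at chr18:37806333-37807173 with a fold of 2.70. WT replicate 2 and KO replicate 3 had no peak there. All 4 peaks covered the annotated 5′ end, in a first exon whose coding sequence starts at 37806548, and each genotype had 1 library without one. An antisense gene, BC037039, spans chr18:37805718-37807922 on the other strand, and peaks carry no strand, so binding cannot be assigned to either gene. These peaks were of middling strength within their own lists, with folds at the 41.9 to 53.9 percentiles and −log10 q values of 1.53 to 1.82.

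KDM2A peaks covered 20.5%, 0% and 7.25% of the Pcdhgc3 promoter window in WT replicates 1 to 3. In KO replicates 1 to 3 they covered 5.65%, 21.02% and 0%. The genotypes overlapped fully, with a WT mean of 9.24% ± 10.4 and a KO mean of 8.89% ± 10.9 (SD, 3 libraries per genotype). The difference was −0.35 percentage points (SE 7.37), with an adjusted p of 0.995 by limma over 10781 promoters, and its sign turned to plus without WT replicate 1 (5.27), KO replicate 1 (1.27) or KO replicate 3 (4.09). No H3K36me2 peak reached the Pcdhgc3 window in any library. The nearest ended 3116 bp upstream of its 5′ end in WT replicate 1 and began 3822 bp downstream in WT replicate 2. Of the 10781 protein-coding promoters with KDM2A in at least 2 libraries, 1821 (16.9%) had no H3K36me2 peak in any library.

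The other 4 C-type genes had little or no signal. Pcdhac1 and Pcdhac2, the C-type genes of alpha, had no peak of either antibody, although both had a CpG island in the window and 93 and 137 CpG dinucleotides there, against 181 at Pcdhgc3. At Pcdhgc5 a single KDM2A peak was found, in WT replicate 1, with a fold of 2.68 and its near edge 1161 bp downstream of the 5′ end. At Pcdhgc4 a single H3K36me2 peak was found, in KO replicate 1, with a fold of 2.62 and its near edge 1740 bp downstream. The alternate genes with a KDM2A peak were Pcdhgb2, in WT replicate 1 with a fold of 2.49, and Pcdhgb6, in WT replicate 2 with a fold of 2.71. Pcdhga12, the last alternate gene before the C-type genes, had an H3K36me2 peak in WT replicate 3 with a fold of 2.40. Outside Pcdhgc3, then, no promoter of the clusters had a peak in more than 1 of the 6 libraries of an antibody.

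Some peaks fell close to the edge of the window. For KDM2A the farthest peak inside it began 1516 bp from the 5′ end of Pcdhgb2, and the nearest peaks outside began 2098 bp from that of Pcdhb7 (WT replicate 1, fold 3.04) and 2118 bp from that of Pcdhga9 (KO replicate 3, fold 2.64). For H3K36me2 the Pcdhgc4 peak of KO replicate 1 overlapped a peak of WT replicate 1 that began 2041 bp from the same 5′ end, just outside. Both of these KDM2A peaks and the peaks at Pcdhgb2, Pcdhgb6 and Pcdhgc5 were centred in the coding part of a variable exon.

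KDM2A is known for binding CpG islands. An island overlapped 38 of the 57 promoter windows (66.7%), against 56.4% of all protein-coding windows. The median number of CpG dinucleotides per window was 85 for the clustered protocadherins and 86 for all protein-coding genes. Closer in, in the 1 kb centred on the 5′ end, the members were poorer, with a median of 30 against 41, and beta was the lowest at 15. By cluster the medians per window were 114.5 in alpha, 69.5 in beta and 99 in gamma. KDM2A was present in at least 2 libraries at 1 of the 38 island-bearing member promoters, while it was present at 9451 of 12387 (76.3%) of all island-bearing protein-coding promoters. Among windows with 100 to 149 CpG dinucleotides, 0 of 21 members and 80% of all protein-coding promoters had KDM2A in at least 2 libraries. Of 54 islands anywhere in the 3 clusters, 4 met a KDM2A peak in any library and 1 (1.85%), that of Pcdhgc3, in at least 2, against 58.9% of 16943 islands genome-wide.

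Most islands of the clusters did not cover an annotated 5′ end. In 33 members the island lay in the window but did not cover the 5′ end, being mostly inside the variable coding exon, and 5 members (Pcdha5, Pcdhac1, Pcdhgb4, Pcdhgb5 and Pcdhgc3) had an island over the 5′ end. Genome-wide, 9650 protein-coding genes had an island over the 5′ end and 2737 elsewhere in the window, with KDM2A in at least 2 libraries at 80.1% and 62.7% of them. The matching counts for the clustered protocadherins were 1 of 5 and 0 of 33. DNA methylation was not measured in these cells, and its part in these counts was not tested. Sequence similarity among members could limit how reads are placed, so the share of 50-base stretches that occur once in the genome was computed. That share was 83.4% to 100% per promoter window with a median of 96.9%, and over whole clusters it was 82.7% in alpha, 87.0% in beta and 96.2% in gamma. It was 86.4% in the 200 kb before alpha and 98.6% in the 200 kb after gamma, and KDM2A peaks were found in all 6 libraries in both. The share was thus higher in gamma, which held most of the peaks, than in alpha and beta, and its part in the peak counts was not tested.

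**Figure D2:**
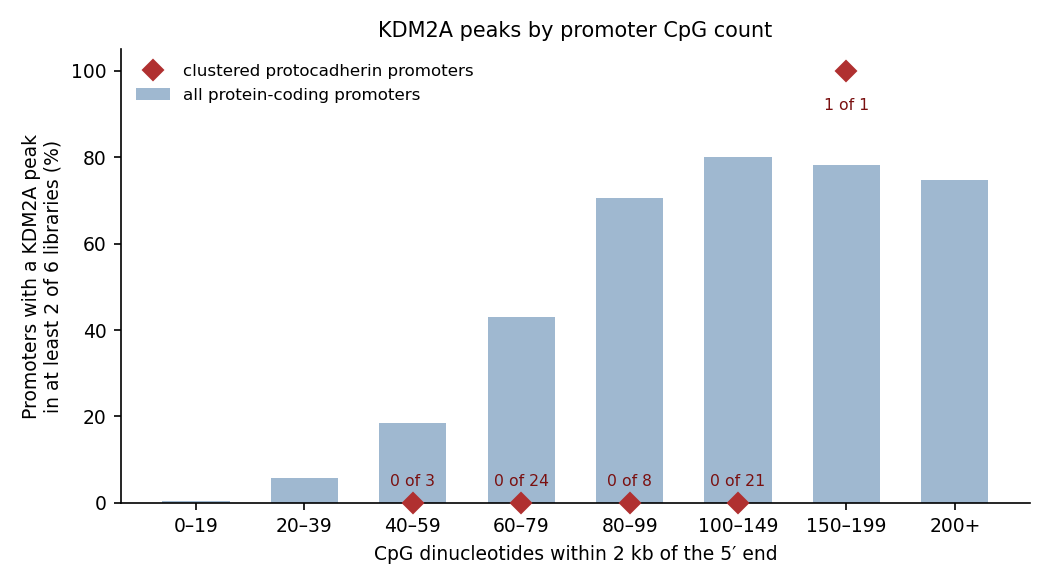
Share of promoters with a KDM2A peak in at least 2 of 6 libraries (vertical axis, %) by the number of CpG dinucleotides within 2 kb of the 5′ end (horizontal axis). Bars are all protein-coding promoters and diamonds are the clustered protocadherin promoters, with their counts. Members sit at 0 in the bins from 40 to 149 CpG, where the bars rise from 18.6% to 80%, and the single member above is Pcdhgc3.

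Across whole clusters peaks were likewise sparse. No peak of either antibody lay in alpha (chr18:36930184-37187661) or between alpha and beta. Beta (chr18:37264938-37524479) held the single KDM2A peak near Pcdhb7 and no H3K36me2. From 36802069 to 37343799, a stretch of 542 kb with the 5′ ends of 21 members, no KDM2A list had a peak. For H3K36me2 the empty stretch ran from 36801213 to 37644574, or 843 kb, and held the 5′ ends of 36 members. Empty stretches of this length were not rare, as this one ranked 442 of 2316 peak-free stretches over 100 kb for H3K36me2 and the KDM2A one ranked 491 of 6017. This H3K36me2 stretch held 41 protein-coding 5′ ends, and 11 stretches, this one included, held at least as many, a count that was not adjusted for length.

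Gamma (chr18:37661793-37841873) held 9 KDM2A peaks, with at least 1 in each library, and 31 H3K36me2 peaks in 5 of the 6 libraries. The H3K36me2 peaks were confined to its 3′ part in these lists. Before the 5′ end of Pcdhga11 no list had one, over the promoters of Pcdhga1 to Pcdhgb7. From Pcdhga11 to the end of the cluster, a boundary chosen after the peaks were seen, H3K36me2 peaks covered 7.71%, 2.02% and 7.93% in WT replicates 1 to 3. In KO replicates 1 to 3 they covered 8.72%, 0% and 0.579%. KO replicate 1 was thus the highest of all, and the other KO libraries, whose lists were the shortest, were the lowest. Relative to the genome-wide coverage of the same list, these values were 1.85, 0.379, 1.51, 2.40, 0 and 0.401 in the same order, which put 3 libraries above their genome-wide level and 3 below it. Over the whole of gamma they were 0.884, 0.181, 0.722, 1.15, 0 and 0.192, with KO replicate 1 alone above its genome-wide level. By the position of its centre, 26 of the 34 H3K36me2 peaks in the span lay in introns of the gamma genes, 3 in variable coding exons and 1 in a constant exon.

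Positions were poorly shared between libraries. The 34 H3K36me2 peaks of the span merged into 26 intervals, of which 6 were present in 2 or more libraries and 5 in both genotypes. The merged interval with peaks from the most libraries was chr18:37834347-37836374, in an intron between constant exons of gamma. It was singled out after its values were seen and held peaks of WT replicates 1 to 3 and KO replicate 1, with a mean fold of 2.45. These peaks formed a staggered chain and not a position shared by all 4 libraries. The WT replicate 2 peak ended at 37834614, before those of WT replicate 3 (from 37834767) and WT replicate 1 (from 37835279) began. The strongest intervals outside promoter windows among those in 2 or more libraries were chr18:37779221-37781370 (WT replicates 1 and 3, mean fold 2.65), chr18:37798073-37799239 (WT replicate 3 and KO replicate 1, mean fold 2.64) and chr18:37644575-37645437 (WT replicate 1 and KO replicate 3, mean fold 2.54). The first of these lies in the intron after the Pcdhga12 variable exon, the next before Pcdhgc3, and the last beside Taf7 between beta and gamma. The 13 KDM2A peaks of the span merged into 8 intervals, and only those at Pcdhgc3 and at Taf7 were present in more than 1 library. Of the 34 H3K36me2 peaks 2 had a −log10 q of at least 2, and of the 13 KDM2A peaks 4 did, 3 of them at Taf7 and 1 near Pcdhb7.

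**Figure D3:**
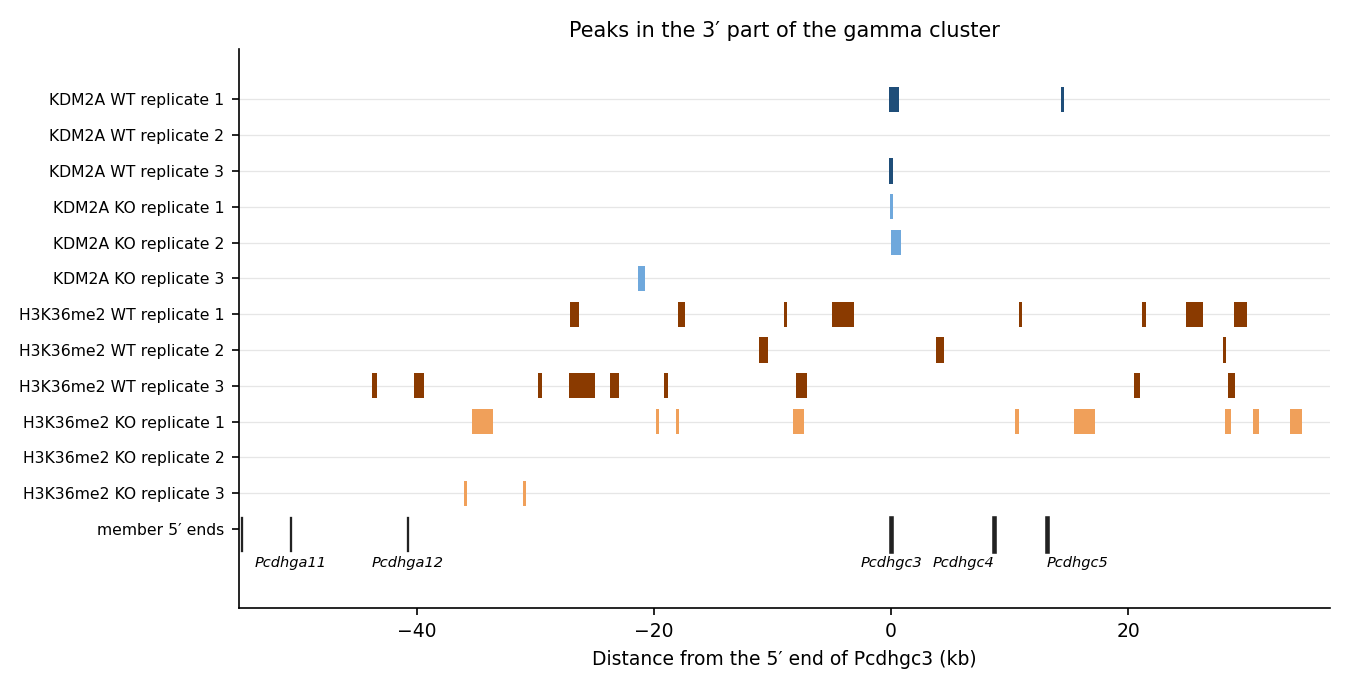
Peaks in the 3′ part of the gamma cluster, drawn to scale, with the distance in kb from the 5′ end of Pcdhgc3 on the horizontal axis and 1 row per library. KDM2A peaks of 4 libraries stack at Pcdhgc3, where no H3K36me2 list has a peak, and H3K36me2 peaks are scattered over the introns on both sides in WT replicates 1 to 3 and KO replicate 1, while KO replicate 3 has peaks upstream only and KO replicate 2 has none.

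The study compared KO with WT, and for the clustered protocadherin promoters this comparison rests on Pcdhgc3, since no other member had a peak in more than 1 library of an antibody. KDM2A peaks were present at 3, 1 and 1 member promoters in WT replicates 1 to 3 and at 1, 1 and 0 in KO replicates 1 to 3, a difference of −1 promoter. This difference was −0.333 without WT replicate 1 and −1.33 without WT replicate 2 or WT replicate 3. It was −1.17 without KO replicate 1 or KO replicate 2 and −0.667 without KO replicate 3. With lists of equal length or only peaks with a −log10 q of at least 2 it was 0. H3K36me2 peaks were present at 0, 0 and 1 member promoters in WT and at 1, 0 and 0 in KO, a difference of 0. With bound defined as a peak in at least 2 of 3 libraries, KDM2A was bound at 1 member common to WT and KO (Pcdhgc3), at 0 members of WT alone and at 0 of KO alone, while the corresponding shares of all protein-coding promoters were 36.1%, 7.93% and 2.38%. The call in both genotypes at Pcdhgc3 rests on all 4 libraries with a peak, and it was lost when WT replicate 1, WT replicate 3, KO replicate 1 or KO replicate 2 was left out. For H3K36me2, 0 members were bound in either genotype, against 13.9% of all promoters bound in both, 20.7% in WT alone and 1.63% in KO alone.

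In promoter coverage, 0 of 57 members had WT and KO libraries that did not overlap, a count fixed by the sparse peaks, because a genotype can only stand apart with a peak in all 3 of its libraries and no member, Pcdhgc3 included, had that. Over all protein-coding promoters, KDM2A coverage did not overlap and was higher in WT at 5.72% and higher in KO at 0.683%, and H3K36me2 coverage was higher in WT at 8.53% and higher in KO at 0.1%. In the limma fit to coverage, 1 member (Pcdhgc3) of 10781 promoters could be tested for KDM2A and 0 of 9075 for H3K36me2. KDM2A gave 0% of promoters with an adjusted p under 0.05 and 836 with an unadjusted p under 0.05, and Pcdhgc3 was in neither. H3K36me2 gave 8 called promoters (0.0882%), which became 41 without KO replicate 1 and 0 without any other single library, and no member was among those tested. No member had a peak in all 6 libraries of an antibody, so none entered the limma test of peak fold, which called 0 of 5170 KDM2A promoters and 0 of 862 H3K36me2 promoters, with 284 and 53 at an unadjusted p under 0.05. With the percentile rank of the fold within its list in place of the fold, 0 KDM2A and 3 H3K36me2 promoters were called.

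Over the 3 clusters together, KDM2A peaks covered 0.263%, 0.0337% and 0.0416% in WT replicates 1 to 3 and 0.0324%, 0.121% and 0.113% in KO replicates 1 to 3. The WT mean was 0.113% ± 0.13 and the KO mean 0.0887% ± 0.0489 (SD, 3 libraries per genotype). The difference of −0.0239 percentage points was smaller than either SD, and it turned to 0.0511 without WT replicate 1, to 0.0043 without KO replicate 1 and to 0.0793 without both male libraries. It was −0.0633 without WT replicate 2, −0.0594 without WT replicate 3, −0.0398 without KO replicate 2 and −0.0361 without KO replicate 3. Relative to the genome-wide coverage of the same list the direction was the opposite, with a WT mean of 0.109 ± 0.111 and a KO mean of 0.167 ± 0.107, a difference of 0.0581 that was also within the spread. H3K36me2 peaks covered 0.953%, 0.250% and 0.980% in WT and 1.08%, 0% and 0.0716% in KO. The means were 0.727% ± 0.414 and 0.383% ± 0.603, and the difference of −0.344 percentage points was likewise within the spread. Leaving out 1 library moved it between −0.692 (without KO replicate 1) and −0.153 (without KO replicate 2), with −0.583 without WT replicate 2, −0.232 without WT replicate 1, −0.218 without WT replicate 3 and −0.188 without KO replicate 3. When KO replicates 2 and 3, the shortest lists, were both left out, KO was a single library and the difference was 0.350. With the same number of strongest peaks taken from each list it was −0.0179, and with only peaks of a −log10 q of at least 2 it was −0.0528 percentage points. Relative to the genome-wide coverage of the same list, the WT mean was 0.154 ± 0.095 and the KO mean 0.116 ± 0.159, a difference of −0.0384. Coverage of the clusters was below that of the genome in each of the 12 lists, at 0.0438 to 0.278 of the genome-wide level for KDM2A and 0 to 0.297 for H3K36me2.

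**Figure D4:**
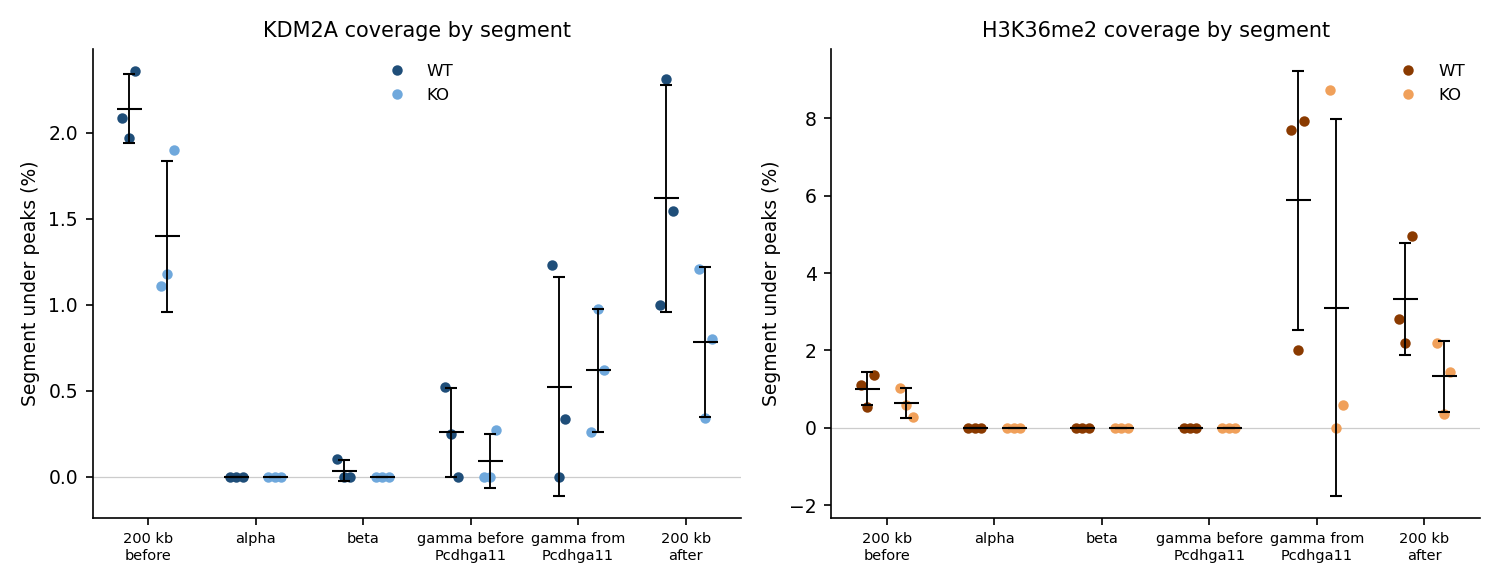
Percent of each segment under KDM2A peaks (left) and H3K36me2 peaks (right), with 1 point per library and the mean ± SD of 3 libraries per genotype. For H3K36me2, alpha, beta and gamma before Pcdhga11 are at 0 in all libraries, and gamma from Pcdhga11 ranges from 0% to 8.72%.

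KDM2A peaks were present at genes on both sides of the clusters. Of the 18 other protein-coding genes that start in the span or within 200 kb of it, 16 had an island in the window. A KDM2A peak lay at the promoter of 13 in at least 1 library and of 3 (Hars, Hars2 and Diaph1) in all 6. Some of these genes lie close together and shared the same peaks, such as Hars and Hars2. The matching shares were 57.0% and 23.6% of all protein-coding promoters, and 83.2% and 39.7% of island-bearing ones. The 5 neighbours without a KDM2A peak were Slc25a2, Arap3 and the read-through models Gm42416, Gm37013 and Gm37388, which begin inside alpha. Diaph1, a formin gene that lies just beyond gamma on the opposite strand, had KDM2A folds of 4.00, 3.14 and 4.21 in WT replicates 1 to 3 and of 2.63, 2.98 and 4.01 in KO replicates 1 to 3. Taf7, a subunit gene of the general transcription factor TFIID that starts between beta and gamma, had KDM2A peaks in WT replicates 2 and 3 and KO replicate 3, with folds of 3.50, 2.89 and 2.96. In the 200 kb before alpha, KDM2A covered 2.14% ± 0.202 in WT and 1.40% ± 0.439 in KO, above the genome-wide level in all 6 lists (1.89 to 2.72 times it). In the 200 kb after gamma it covered 1.62% ± 0.660 in WT and 0.785% ± 0.435 in KO, which was above the genome-wide level in 4 lists and below it in WT replicate 1 (0.903 of it) and KO replicate 2 (0.787 of it). H3K36me2 coverage was below the genome-wide level in all 6 lists before alpha (0.101 to 0.378 of it), and after gamma it was below that level in 5 lists (0.223 to 0.943 of it) and slightly above it in KO replicate 3.

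Other protocadherins were also sparse in peaks. Of 12 non-clustered protocadherin genes, 9 with an island in the window, 2 had a KDM2A peak in any library, Pcdh1 in 3 libraries and Pcdh8 in 1, and 0 had H3K36me2. Over all protein-coding promoters a peak in any library was present at 57.0% for KDM2A and 52.3% for H3K36me2. Among island-bearing ones it was 83.2% for KDM2A. Of 6 neuronal markers 3 had a KDM2A peak in at least 1 library, near the share of all promoters, with Tubb3 in 4 libraries. None of the 6 had H3K36me2. Of 20 genes for proteins known to act on the clusters, such as CTCF, cohesin subunits and DNA methyltransferases, 16 had a KDM2A peak in at least 1 library and 9 in all 6. An island lay in the window of 15 of them, and among all island-bearing protein-coding promoters the shares were 83.2% and 39.7%. Ctcf had KDM2A in 6 of 6 libraries with a mean fold of 3.22, and Smchd1, a chromatin protein that represses the clusters, in 6 of 6 with a mean fold of 3.72.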

How the data were processed

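ChIP-seq libraries of WT and KO splenic B cells were analysed from 12 peak lists, without the 6 inputs. The authors used the nf-core/chipseq pipeline, in which BWA placed reads on GRCm38 and MACS2 called broad peaks in each library, with no pooling of replicates. In the deposited lists, fold is a ratio over the local control and is not scaled between libraries. The deposited −log10 p-value was not used, and the deposited −log10 q-value, at least 1.00, was used as a filter in an alternative. The deposited score was not used. Depth and read filters are not given in the sources used here, so no counting intervals are given.

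Members and gene lists were chosen with earlier results of these data known. Promoters were windows of 2 kb around the GENCODE M21 gene start. CpG islands were scored on GRCm38.p6 with repeats removed, as 17 per CpG and −1 per other base, over 200 bp, GC of at least 50% and observed over expected above 0.6. Coverage and log2 fold (median-centred per library) were fitted with limma 3.58.1 in R 4.3.3, without a replicate term, on promoters with a peak in at least 2 of 6 libraries (fold, all 6), with Benjamini-Hochberg adjustment over all of them and a threshold of 0.05. The fit was tested on simulated coverage with known changes. These values were drawn from normal distributions, without the bounds and exact zeros of real coverage, so they do not show how the fit performs on such values. Counts over members and cluster coverage have no test. Genes named were those with a peak in the most libraries, all C-type genes, neighbours within 200 kb and up to 4 per related list. Nothing says that libraries came from separate cultures beyond their sex and number, so p-values measure the spread between these libraries. Alternatives were equal list lengths, a −log10 q of at least 2, a window of 1 kb, any transcript start, at least 200 bp of overlap, division by genome-wide coverage, each cluster alone, the percentile rank of the fold, all promoters with any peak, a replicate block and leaving out libraries.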

Additional observations from a re-analysis of the deposited data

Results flagged for a closer look

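In 5 of 8 measures the KO minus WT difference had opposite signs in the male libraries (replicate 1) and in all pairings of the female libraries. The measures are not separate. Alpha and beta held no H3K36me2 peak and only 1 KDM2A peak, so coverage of the clusters largely repeats coverage of gamma. KDM2A coverage of the 3 clusters differed by −0.230 percentage points in the males and by 0.0793 on average in the females, and coverage of gamma by −0.737 and 0.307. Relative to the genome-wide coverage of the same list, KDM2A coverage of gamma differed by −0.524 in the males and 0.668 in the females. H3K36me2 coverage of the clusters differed by 0.125 percentage points in the males and by −0.579 in the females, and coverage of gamma by 0.484 and −2.24. Relative to genome-wide coverage the H3K36me2 signs were not opposite in all pairings, with 0.266 in the males and −0.722 to 0.0103 in the females. Whether the sexes differ was not tested, because each genotype had 1 male library, and the female KO libraries also had the shortest H3K36me2 lists.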

How the results depend on the processing

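The KDM2A call at Pcdhgc3 in both genotypes was 1 promoter and became 0 with equal list lengths (then 1 in KO only), with a −log10 q of at least 2 and without both male libraries. Leaving out single libraries gave 0 to 1 in both genotypes, 0 to 1 in WT only and 0 to 1 in KO only. The KDM2A coverage difference at Pcdhgc3 was 2.07 percentage points with equal list lengths and 6.89 without both male libraries, and ranged from −6.42 to 5.27 when single libraries were left out, and its adjusted p by limma was 0.876 to 0.998 over the alternatives. For H3K36me2 the cluster coverage difference was −1.33 percentage points in gamma alone. Alpha and beta held no H3K36me2 peak, so this value only divides the same covered bases by a shorter length. In an alternative added after the data were seen, without KO replicates 2 and 3 and so with 1 KO library, the cluster coverage difference was 0.350. The H3K36me2 difference in promoters per library was then 0.667. Apart from the value in gamma alone, the cause of these shifts was not tested. The KDM2A difference in promoters per library was 0 with equal list lengths and with a −log10 q of at least 2, against −1. It was −0.333 with a window of 1 kb, −0.667 with any transcript start and −0.5 without both male libraries. The KDM2A cluster coverage difference was −0.00086 with equal list lengths, 0.0581 when divided by genome-wide coverage and 0.0793 percentage points without both male libraries, against −0.0239. The H3K36me2 one was −0.0179, −0.0384 and −0.579 under the same settings, against −0.344. Values divided by genome-wide coverage are ratios and have no common scale with the others. The other moves in this group were smaller than the larger SD of the 2 genotypes, which is wide with 3 libraries each, and do not show stability. No member entered a limma test of fold, and 0 to 4 entered those of KDM2A coverage and 0 to 2 those of H3K36me2 coverage, so that the 0 members called say little. Replicate numbers did not pair the libraries (correlations of same-numbered deviations from −0.038 to 0.0291), and with a replicate block the Pcdhgc3 difference stayed at −0.35 with an adjusted p of 0.996, and 0 KDM2A and 0 H3K36me2 promoters were called, where H3K36me2 had 8 without it. List length, and with it unknown depth, limits what these lists can show, since a promoter without a peak was not detected as enriched at the depth of that library. With a −log10 q of at least 2, no member passed the limma filter, so Pcdhgc3 has no value there.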
